A study of Homo sapiens with 4 samples.

Results

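The 10 genes described here encode the human telomerase complex and part of the machinery that holds and guards chromosome ends. They are the catalytic subunit TERT, the RNA subunit TERC, the H/ACA proteins DKC1, NOP10, NHP2 and GAR1, the trafficking factor WRAP53, and the shelterin proteins TERF1, TERF2 and POT1. They were found by symbol among the 42169 gene rows of the deposited count table, and all 10 were present. The set was chosen by the low TERT counts of 1 clone in this same comparison, and the other genes joined it as partners of TERT. The values of the 10 genes are therefore given as a description, without p-values.

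RNA was sequenced from Huh7, an established human hepatoma cell line. Control clone 1 carries the WT genotype label and clone 18 is the Brf1/TTP DKO, with 2 libraries from each. TTP (gene ZFP36) and BRF1 (gene ZFP36L1) bind AU-rich elements in messenger RNAs and promote their decay. Both clones were kept in DMSO for 3 h, and for the last 10 min before harvest actinomycin D, an inhibitor of transcription, was present at 5 µg/ml, so no group was free of actinomycin D. Each genotype is 1 clone, and effects of clone and of genotype cannot be told apart.

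Telomerase is a reverse transcriptase that lengthens chromosome ends by copying a short template within its own RNA. Dyskerin (DKC1), NOP10, NHP2 and GAR1 bind the H/ACA domain of that RNA and keep it stable, and they do the same for the small nucleolar RNAs that guide pseudouridylation. WRAP53, also called TCAB1, brings the particle to Cajal bodies. Shelterin coats the telomeric repeat: TERF1 and TERF2 bind the double strand and POT1 binds the single-stranded overhang. TERT is silent in most adult tissues and active in most liver cancers, while the other components are made in most cells.

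The template is shown because it is the part of the RNA component that TERT copies. It was found in the GENCODE release 29 transcript of TERC, 541 bases long, as the longest stretch that runs along the complement of the telomeric repeat. It spans bases 46 to 56, and the 11 template bases are in capitals.
TERC template: auuuuuuguCUAACCCUAACugagaagggc

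Reads on genes ranged from 9685798 in control replicate 1 to 16430228 in DKO replicate 2. Levels are in CPM, the counts divided by the TMM-scaled library total and put on a common scale, and 3 reads came to between 0.186 and 0.302 CPM. Hepatocyte markers were abundant, with a summed level over 14 genes of 28615 and 29172 CPM in control and 30581 and 28077 CPM in DKO. Single markers differed, with log2 fold changes (DKO over control) from -1.13 to 1.74. By the edgeR test described below 1 of the 14 was lower and 3 were higher, against 3.14% and 2.24% of all tested genes. Defining markers of other lineages were at 0 counts in all libraries: CD3E and MS4A1 of leukocytes, CDH5, KDR and VWF of endothelium, and HBB and HBA2 of red cells. The summed level of the 7 leukocyte markers was 75.6 and 77.1 CPM in control and 108 and 127 CPM in DKO, nearly all of it LYZ. That of the 5 endothelial markers was 7.44 and 6.35 against 26.6 and 29.1 CPM, nearly all of it PECAM1, and that of the 5 fibroblast markers was 88.4 and 137 against 138 and 138 CPM. The part of these markers in the results was not tested. ZFP36 mRNA was not lower in DKO (26.5 ± 3.88 CPM in control and 37.0 ± 0.234 CPM in DKO, SD, n = 2), nor was ZFP36L1 mRNA (121 ± 14.7 and 133 ± 18.0 CPM). Messenger RNA levels therefore do not check the knockout label.

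TERT, the reverse transcriptase itself, was lower in the DKO clone. The gene lies on the minus strand of chromosome 5 (1253147 to 1295069, hg38). It had 155 and 253 reads in control against 52 and 63 in DKO. Scaled to depth these were 15.6 and 20.6 CPM in control and 5.02 and 3.90 CPM in DKO. Both DKO libraries lay far below both control libraries, and the spread within each clone was small beside the distance between them. The means were 18.1 ± 3.55 and 4.46 ± 0.791 CPM (SD, n = 2), so the control level was 4.06-fold the DKO level. The log2 fold change (DKO over control, in all values that follow) was -2.04 (SE 0.27). Counting error alone gave 95% Poisson intervals of 38.8 to 68.2 and 48.4 to 80.6 reads for the DKO libraries, so TERT reads were few but above the floor of 3 counts. Among 13359 tested genes, 51 lay lower by log2 fold change, and TERT ranked at position 52.

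TERC, the RNA that carries the template printed above, was too thinly covered to compare. It lies on chromosome 3 (169764520 to 169765060, minus strand). The libraries held 24 and 8 TERC reads in control and 20 and 24 in DKO, or 2.41 and 0.652 CPM against 1.93 and 1.48 CPM. The control libraries enclosed both DKO libraries, and the 95% Poisson interval of the control library with 8 reads ran from 3.45 to 15.8 reads. The log2 fold change of 0.19 had an SE of 0.52, and without control replicate 2, the library with 8 reads, it was -0.53. A change of the size seen for TERT was not seen in TERC, but a smaller one was not detectable at this depth. TERC also overlaps the annotated RNA family entry RF00024 on the same strand. The deposited counts hold no row under that symbol, and how reads falling in both were handled is not stated in the labels.

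**Figure D1:**
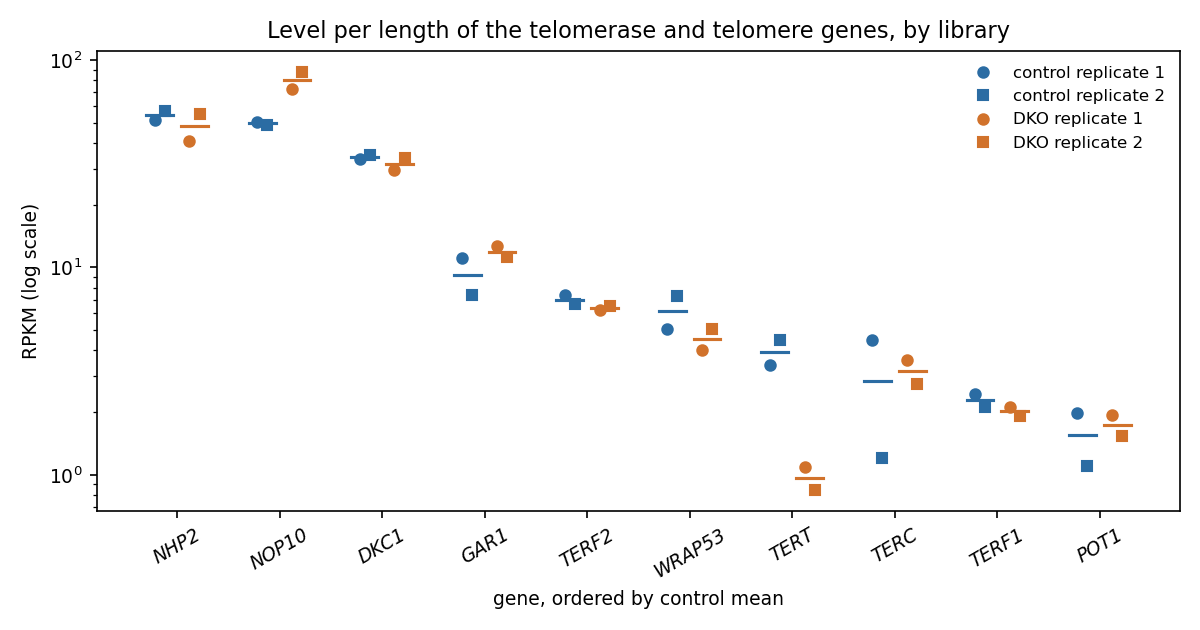
Level per length of the 10 genes in each library, in RPKM (CPM divided by kilobases of exon) on a log axis, ordered by the control mean. Blue points are control libraries, orange points DKO libraries, circles replicate 1, squares replicate 2, and bars the mean of each clone. TERT is in the seventh place in control and the last in DKO, at 0.969 RPKM, while the means of the other 9 genes differ by at most 1.62-fold.

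The 4 H/ACA proteins did not follow TERT. DKC1 (chromosome X, 154762742 to 154777689) encodes dyskerin, the pseudouridine synthase of the complex, and had 140 and 147 CPM in control and 124 and 141 CPM in DKO. The libraries of the clones overlapped, with a log2 fold change of -0.11 (SE 0.19). NHP2 (chromosome 5, 178149460 to 178153967), an RNA-binding core protein, had 77.4 and 86.0 CPM in control and 61.6 and 83.5 CPM in DKO, which also overlapped (-0.17, SE 0.21). The gene has the annotated pseudogenes NHP2P1 and NHP2P2, and the deposited counts hold no row under either symbol. It shares 1106 bases with RMND5B on the opposite strand. RMND5B differed by -0.24 (SE 0.20). The labels do not state the strand setting of the authors' counting, so the reads of these partners may not have been kept apart.

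NOP10 and GAR1 were the H/ACA members with both DKO libraries above both control libraries. NOP10 (chromosome 15, 34341713 to 34343177), the smallest protein of the complex, had 28.0 and 27.0 CPM in control and 40.1 and 48.8 CPM in DKO. Its mean was 1.62-fold higher in DKO, a log2 fold change of 0.69 (SE 0.20). GAR1 (chromosome 4, 109815510 to 109824740), which joins the particle late in assembly, had 22.6 and 15.1 CPM in control and 25.9 and 22.9 CPM in DKO. Its DKO libraries lay above the control libraries by less than the distance between the control libraries, and the log2 fold change was 0.37 (SE 0.24). DKC1 also hosts the H/ACA small nucleolar RNAs SNORA56 and SNORA36A in its introns, and those rows held 0 and 1 reads over all 4 libraries.

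WRAP53 (chromosome 17, 7686071 to 7703502) had 25.7 and 37.1 CPM in control and 20.4 and 25.7 CPM in DKO. The higher DKO library and the lower control library were nearly level, and the log2 fold change was -0.44 (SE 0.23).

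The shelterin members differed little between the clones. TERF1 (chromosome 8, 73008864 to 73048122), which restrains telomere lengthening, had 21.6 and 18.8 CPM in control and 18.7 and 17.01 CPM in DKO (-0.18, SE 0.22). TERF2 (chromosome 16, 69355561 to 69408571), which protects ends from fusion, had 41.3 and 37.4 CPM in control and 35.2 and 36.8 CPM in DKO (-0.13, SE 0.20). Both genes had lower values in both DKO libraries, by margins under the SE. POT1 (chromosome 7, 124822386 to 124929983), which caps the overhang, had 11.8 and 6.52 CPM in control and 11.5 and 9.09 CPM in DKO, with the DKO libraries inside the control range (0.17, SE 0.29). TERF1 has 5 annotated processed pseudogenes, so its reads could be shared with them. The deposited counts hold no row under the symbols of these pseudogenes.

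All 10 genes passed the filter on low counts. The edgeR quasi-likelihood test, adjusted over all tested genes by Benjamini-Hochberg at a threshold of 0.05, placed 1 of the 10 past the threshold as lower (TERT) and 0 as higher. The same call was made for 3.14% of all tested genes as lower, 2.24% as higher and 5.37% in either direction. Since TERT led to the choice of the genes, nothing is read from that count. Both DKO libraries lay below both control libraries for 3 of the 10 genes and above them for 2. Among all tested genes the shares were 24.8% and 25%, together 49.8%. The median log2 fold change of the 10 genes was -0.12, against 0.00 over all tested genes. Apart from TERT and NOP10 the other 8 genes lay between -0.44 and 0.37. Values of GAR1 and WRAP53 depended on either control library. Without control replicate 1 they were at 0.69 and -0.68, and without control replicate 2 at 0.096 and -0.16. NOP10 moved little, to 0.72 and 0.66. More of the 10 genes were called without control replicate 1, as were more of all tested genes.

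Scaling to the ERCC spike-ins in place of the gene counts moved every value downwards. Spike-ins made up 1.47% and 0.946% of all control counts and 1.62% and 2.10% of all DKO counts. With spike-in totals as library sizes the median of all tested genes was -0.68, and all 10 genes had negative values. TERT was then at -2.73 (SE 0.56), WRAP53 at -1.20 (SE 0.52) and NOP10 at -0.0013 (SE 0.52). Directions given for the genes other than TERT therefore hold relative to the median gene.

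**Figure D2:**
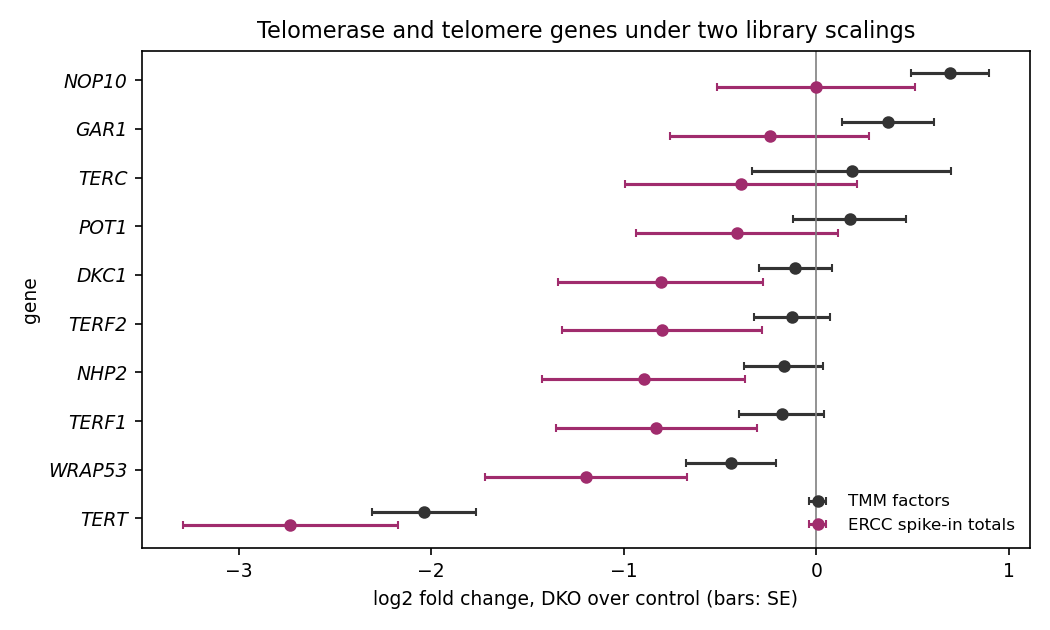
Log2 fold change of DKO over control for the 10 genes, with the standard error as a bar. Black points use TMM factors and purple points use spike-in totals as library sizes. TERT is at -2.04 and -2.73, and NOP10, GAR1, TERC and POT1 lie above 0 under the first only.

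Levels were compared between genes as RPKM, the CPM divided by the kilobases of exon. In the control libraries NHP2 (54.1 ± 4.05), NOP10 (49.6 ± 1.18) and DKC1 (34.1 ± 1.15) led (SD, n = 2), and the libraries of each did not overlap with those of the next. GAR1 (9.21 ± 2.62), TERF2 (7.004 ± 0.498), WRAP53 (6.16 ± 1.59), TERT (3.93 ± 0.770), TERC (2.83 ± 2.30), TERF1 (2.29 ± 0.225) and POT1 (1.55 ± 0.630) followed. In that order TERF2 and WRAP53, TERT and TERC, and TERC and TERF1 overlapped and could not be ranked. In the DKO libraries NOP10 (80.2 ± 11.0) stood above NHP2 (48.0 ± 10.3), and TERT (0.969 ± 0.172) stood last, below POT1 (1.74 ± 0.286). With the length of the longest transcript in place of all exons, NHP2 and NOP10 overlapped in DKO and could not be ranked. TERT stayed last. TERF1 then ranked seventh in control, above TERT.

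TERT lies near the end of the short arm of chromosome 5, in a stretch where most genes had lower counts in DKO. Of 20 other tested genes within 5 Mb of TERT, 19 had negative log2 fold changes, where 49.9% of all tested genes did, and the median was -0.71, against 0.00 over all tested genes. Of the 20, 8 fell and 0 rose at the edgeR threshold, which 3.14% and 2.24% of all tested genes passed as lower and as higher. The closest on one side, the amino acid transporter gene SLC6A19, lies 28.0 kb away and fell from 8.61 ± 0.199 to 4.07 ± 0.0222 CPM (-1.08, SE 0.27, edgeR adjusted p = 0.0321). The closest on the other side, CLPTM1L, lies 22.7 kb away and had 167 ± 41.4 and 104 ± 12.9 CPM (-0.68, SE 0.21, edgeR adjusted p = 0.0771).

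The potassium-chloride cotransporter gene SLC12A7 fell by 1.04 on the log2 scale (SE 0.20, edgeR adjusted p = 0.00715). SDHA, which encodes the flavoprotein of succinate dehydrogenase, fell from 159 ± 30.7 to 78.7 ± 16.9 CPM (-1.01, edgeR adjusted p = 0.0144). The others that fell were the lipid remodelling enzyme LPCAT1 (-0.97), the centrosomal protein CEP72 (-0.97), the exocyst subunit EXOC3 (-0.85), ICE1 (-0.78) and the respiratory complex I subunit NDUFS6 (-0.74). Among the 10 nearest coding genes, BRD9 (-0.78), TRIP13 (-0.50), MRPL36 (-0.23), ADAMTS16 (-0.13) and NKD2 (0.68) did not pass, and NKD2 was the only gene of the window with a positive value. NKD2 and ADAMTS16 had means near 1 CPM.

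These calls depended on single libraries. With either DKO library left out, most or all of the calls among the 20 neighbours were lost. Calls over all tested genes also became fewer, but many remained. The median log2 fold change of the neighbours was -0.66 without DKO replicate 1 and -0.72 without DKO replicate 2. The value of TERT lay below those of its surroundings. Its log2 fold change was 1.33 below the median of the window, and it ranked lowest of 101 tested genes of the arm. Low TERT counts led to the choice of the set, so this distance and rank are a description only. The next lowest gene in the window was AHRR (-1.52, SE 0.43). Whether the TERT value and those of its neighbours share a source was not tested.

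Along the arm the lower values continued. The medians were -0.62 for 13 genes 5 to 10 Mb away, -0.81 for 9 genes at 10 to 20 Mb and -0.32 for 58 genes beyond 20 Mb. Over the 100 other tested genes of the arm, 22 fell, 0 rose, 84 had negative values and the median was -0.49. On the long arm 24 of 510 tested genes fell and 4 rose, with a median of -0.03. The arms were split at the widest gap between annotated genes.

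**Figure D3:**
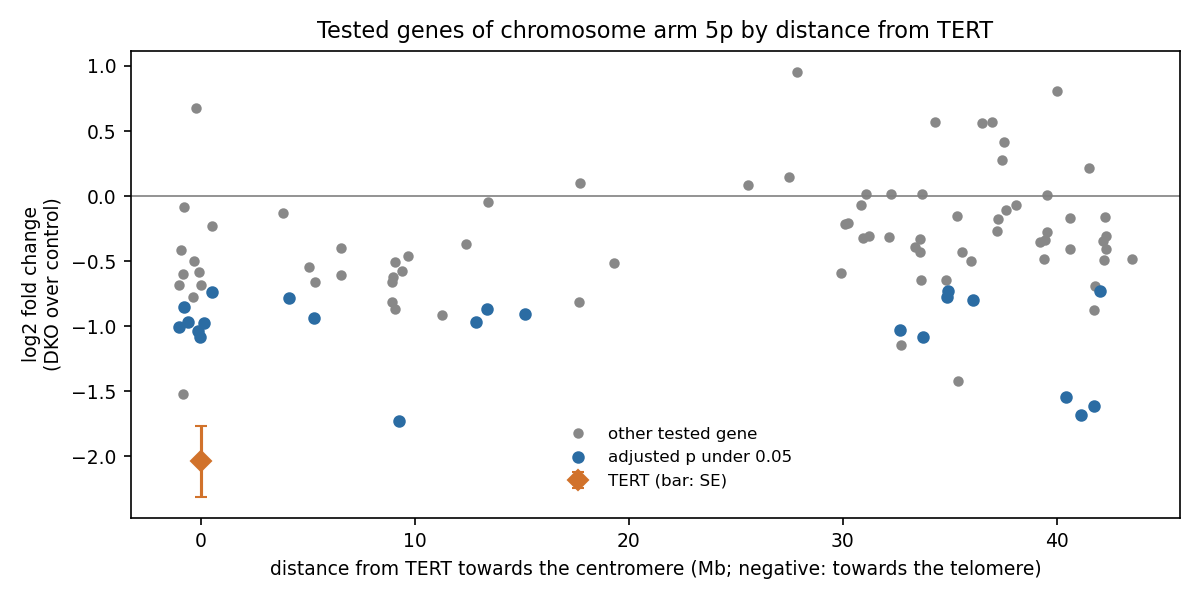
Log2 fold change of the tested genes of chromosome arm 5p against their distance from TERT in Mb, negative towards the telomere. Blue points passed the edgeR threshold, grey points did not, and the orange diamond is TERT with its standard error. Of the 100 other genes, 84 lie below 0, and TERT is the lowest point at -2.04.

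The same window was taken around each of the other 9 genes. NHP2, on the long arm of chromosome 5, also lay among genes with lower DKO values: 53 of 66 were negative, with a median of -0.29, and NHP2 itself was at -0.17. The window around NOP10 had a median of 0.15 over 27 genes, below the 0.69 of NOP10. Windows around the remaining 7 genes had medians between -0.09 and 0.11.

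TTP and BRF1 act on AU-rich elements, so the longest annotated 3′ UTR of each coding member was searched on the sense strand. The motif UAUUUAU, which contains the shorter AUUUA, occurred in 1 of 9 genes, TERF1, with 1 match in 1985 bases. The share of tested coding genes with a UTR within 20% of that length that held it was 36.5%. TERT had neither motif in 604 bases, where 15.0% of genes with a UTR of like length held UAUUUAU and 50.2% held AUUUA. NOP10 had neither in 275 bases (5.74% and 31.7%), nor did DKC1, NHP2, GAR1 or WRAP53. AUUUA occurred 9 times in TERF1, 5 times in POT1 and once in TERF2. Most genes with a UTR of like length also held it: 84.8% for TERF1, 79.7% for POT1 and 82.4% for TERF2. Those of TERF2 and POT1 are printed because they are the AU-rich cores found in members outside TERF1. AUUUA is in capitals, and the number is its first base in the UTR.
TERF2 1378: cugauaagugAUUUAuccucaggca
POT1 13: uugccauccaAUUUAgcauacauaa
POT1 434: aaguggucagAUUUAuaauguuaau
POT1 572: uguuugucaaAUUUAaaaucaugaa
POT1 606: uuauacaaacAUUUAuauauauaua
POT1 716: caacuguuucAUUUAuuugcccuaa
A match is only a match of letters, and binding was not measured. The genes with these matches, TERF1, TERF2 and POT1, had log2 fold changes of -0.18, -0.13 and 0.17.

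Promoter windows from RefSeq (GRCh38.p14, 250 bases before to 50 after the start, both strands searched) were matched for 7 of the 10 genes. The TERT window held 1 copy of the E-box CACGTG, the motif of MYC and MAX, and 3 copies of the GC box GGGCGG, the motif of SP1. Of 35116 promoter windows 7.26% held the E-box and 45.0% the GC box, and 15.8% held at least 3 GC boxes. The NOP10 window held 2 E-boxes and 1 GC box, and 0.664% of windows held at least 2 E-boxes. Of the other 5 genes, GAR1 held 1 E-box in 1 of its 2 windows and DKC1, NHP2, WRAP53 and POT1 held none. GC boxes numbered 5 for NHP2, which 5.14% of windows reached, 4 for DKC1, 2 for POT1 and at most 1 in each window of GAR1 and WRAP53.

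Of 36 tested reported regulators of TERT transcription, 0 rose and 0 fell by edgeR, DESeq2 and limma-voom. By edgeR 2.24% of all tested genes rose and 3.14% fell. A list of this size would hold few calls at those shares, so nothing is read from the count. The leading gene was TFAP4, an E-box-binding factor, with 21.9 ± 1.52 CPM in control and 13.8 ± 1.61 in DKO (-0.66, SE 0.23, edgeR adjusted p = 0.103). In the fits without 1 library TFAP4 ran from -0.80 (without DKO replicate 2) to -0.55 (without DKO replicate 1). ETS1, WT1 and TFAP2C had 0 counts in all libraries. The median was 0.07.

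Proteins that work with shelterin and the CST complex, which fills in the complementary strand, numbered 16 tested genes. By edgeR, DESeq2 and limma-voom 0 passed in either direction, where 5.37% of all tested genes passed by edgeR. The CST subunit CTC1 led, with 32.6 ± 5.33 CPM in control and 20.2 ± 3.59 in DKO (-0.70, SE 0.23, edgeR adjusted p = 0.0865). In the fits without 1 library CTC1 ran from -0.88 (without DKO replicate 1) to -0.52 (without DKO replicate 2). The median was 0.10.

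In the list of telomerase assembly and TERC maturation, 1 of 30 tested genes fell and 0 rose, with a median of -0.07. Among all tested genes 3.14% fell and 2.24% rose, so the count is near the share over all genes. The gene that fell was TEP1, the telomerase-associated protein that is also a component of vault particles. TEP1 fell from 43.2 ± 10.4 to 19.4 ± 4.35 CPM (-1.16, SE 0.24, edgeR adjusted p = 0.0112), and did not pass without DKO replicate 2 (-0.95, edgeR adjusted p = 0.215). DESeq2 called 3 genes of the list and limma-voom 2.

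Among telomere DNA repair, recombination and TERRA genes 0 of 36 passed by edgeR and limma-voom and 1 by DESeq2, with a median of -0.02. By edgeR 5.37% of all tested genes passed. The leading gene was PRKDC, the catalytic subunit of the DNA-dependent protein kinase (-0.68, SE 0.22, edgeR adjusted p = 0.0857). PRKDC was the gene called by DESeq2 (-0.68, DESeq2 adjusted p = 0.0125).

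**Figure D4:**
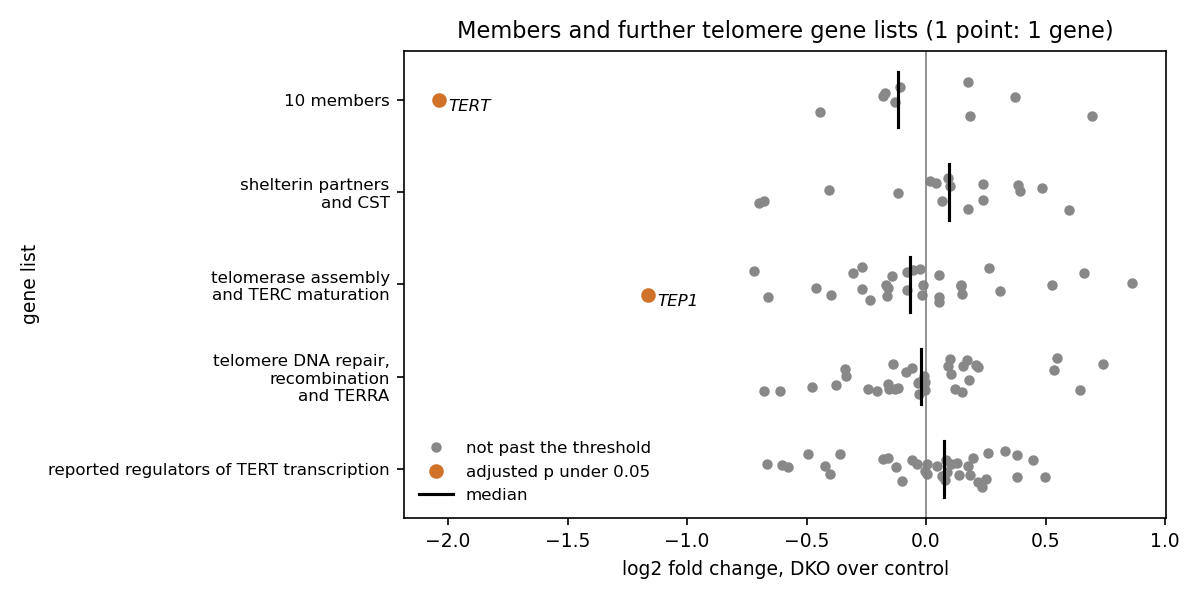
Log2 fold change of DKO over control for the 10 genes and for 4 further lists of telomere genes, each point being 1 gene and each black bar the median of its list. Orange points passed the edgeR threshold. TERT at -2.04 and TEP1 at -1.16 are the genes past the threshold, and the list medians lie between -0.12 and 0.10.

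The genes most like TERT over the 4 libraries were taken as the 5 coding genes with the smallest Euclidean distance in log2 CPM centred on each gene. They were CELSR3 (distance 0.160), KHDRBS3 (0.198), PPP1R14C (0.247), SYTL4 (0.316) and HS3ST3A1 (0.343). The log2 CPM held a prior count of 2, which shrinks differences at low counts. SYTL4 had 9 and 12 reads in control and 1 and 1 in DKO, below the floor of 3 counts (-3.47, SE 0.78). PPP1R14C had 23 and 33 reads in control and 5 and 6 in DKO (-2.56, SE 0.48). CELSR3, an adhesion G protein-coupled receptor, had 10.1 and 12.1 CPM in control and 3.38 and 2.35 CPM in DKO. None of the 5 lies on chromosome 5. With 4 libraries in 2 clones such likeness mainly describes a similar difference between the clones.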

How the data were processed

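The authors deposited whole-number read counts per gene symbol and library, not normalized. The submitters' processing notes list STAR 2.5.3a, Subread 1.6.3 with featureCounts, DESeq2 and the build hg38. No label states the annotation, the strand setting or the handling of multiply mapped reads, which can affect overlapping genes and genes with pseudogenes. Per the labels' protocols, ERCC spike-ins were added to total RNA before ribosomal RNA depletion, and strand-keeping libraries were read from 1 end.

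From the 42261 rows, 92 spike-ins were set aside. Genes were kept by filterByExpr (13359 tested), scaled by TMM and tested with edgeR 4.0.16 (quasi-likelihood, R 4.3.3) over all 4 libraries, with Benjamini-Hochberg adjustment over all tested genes. DESeq2 1.42.0 and limma 3.58.1 (voom) were alternatives. SE is the log2 fold change divided by the root of the F statistic. Symbols matched 1 GENCODE release 29 gene (hg38) for 96.6% of gene rows. Positions are 1-based. Level per length used the union of exons.

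Nothing in the labels ties the libraries to separate cultures, so p-values cover only their spread, which could be technical. The chi-square per degree of freedom between libraries of a clone was 33.6 and 27.1, so none was a duplicate. With 2 against 2, an exact two-sided permutation p cannot go below 0.333. Poisson intervals cover counting error only. On simulated data for this comparison (13359 genes), the test recovered 56% of genes shifted 2-fold and 95% of genes shifted by 2 on the log2 scale, and 10.7% of calls were unchanged genes. The members and lists were chosen with earlier results of these data known. Named genes are the members, up to 5 called genes or the leading gene of each list, the 5 nearest tested coding genes on either side of TERT and those called within 5 Mb, the 5 genes most like TERT, genes overlapping a member, and ZFP36 and ZFP36L1. AHRR was named after its value was seen. Some genes that these rules cover are not reported here.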

Additional observations from a re-analysis of the deposited data

How the results depend on the processing

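As a description, since the members were chosen with this contrast known, the log2 fold change of TERT ran from -2.73 with spike-in totals to -1.83 without control replicate 2 over 11 alternatives, and from -2.23 to -1.83 in the fits without 1 library. The count of genes called was 718 (299 higher, 419 lower). It was 329 with spike-in totals (22 higher, 307 lower), 1194 without a filter, 4021 with the replicate number as a block, and 218 to 2172 without 1 library (lowest without DKO replicate 2, 235 without DKO replicate 1, highest without control replicate 1). Same-numbered libraries deviated from their clone means with a correlation of 0.470, over 2 pairs. Mitochondrial reads were the larger share in replicate 1 of control (2.53% against 0.448%) and of DKO (3.59% against 1.16%). The labels state no link between same-numbered libraries, and a shared source was not tested.

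Of the 10 members 1 was called, 2 without a filter, 4 with the replicate number as a block and 1 to 4 without 1 library. With the replicate block the calls were 5 for shelterin partners and CST, 8 for telomerase assembly, 9 for DNA repair, 7 for TERT regulators and 14 for the neighbours of TERT. Without 1 library these counts ran from 0 to 3, 0 to 4, 0 to 4, 0 to 5 and 0 to 12. Telomerase assembly had 3 calls without a filter, 3 by DESeq2 and 2 by limma-voom, and DNA repair had 1 without a filter and 1 by DESeq2. The neighbours had 4 calls with spike-in totals, and the whole arm 5p had 22. With AUUUA in place of UAUUUAU, 3 members held the motif, as did 75.2% of all tested coding genes with a 3′ UTR. The causes of these differences were not tested.

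Signs turned with spike-in totals for TERC (-0.39), NOP10 (-0.0013), GAR1 (-0.24), POT1 (-0.41), ZFP36 (-0.17) and ZFP36L1 (-0.50). In the fits without 1 library they turned without control replicate 2 for TERC (-0.53, up to 1.35 in the others), POT1 (-0.21, up to 0.64) and ADAMTS16 (0.10, down to -0.32), and without DKO replicate 1 for NHP2 (0.035, down to -0.41) and ZFP36L1 (-0.0099, up to 0.26). Of the 10 members TERC had the fewest reads, 8 to 24 per library.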
